A study of Mus musculus with 24 samples.

Results

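DEAD and DEAH box proteins are helicases of the superfamily that remodels RNA. They use ATP to unwind short RNA duplexes, to clamp RNA, or to strip proteins from it, and they are named after the letters of a conserved motif in their ATPase core. Individual members act at almost every step in the life of an RNA: many work in the nucleolus on the precursor of ribosomal RNA, others drive the rearrangements of the spliceosome, carry mRNA out of the nucleus, open mRNA for translation, or sense viral RNA. In the liver, ribosome production is a large consumer of energy that insulin and feeding are known to raise.

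The genes described here were all genes whose symbol is Ddx or Dhx followed by a number and that had a probe set naming no other gene. This gave 50 genes of the 22180 tested. They were read from 54 probe sets, because Ddx18, Ddx21 and Ddx39b had more than 1; for these 3 the probe set was selected on its mean level over all 24 arrays. A further 4 probe sets named a helicase together with another gene and were not used, which left out Ddx49. The rule goes by symbol, so it also takes in Ddx11, which acts on DNA.

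The cells were primary hepatocytes of male C57Bl6J mice, measured on Affymetrix arrays. They carried an adenovirus for a hairpin RNA at a multiplicity of infection of 5, either shlacZ, against a bacterial gene and the control, or shFOXA2, against the liver transcription factor FOXA2. For 4 h they received 1 nM insulin or 100 nM glucagon, each combined with DMSO as vehicle or with GW4064 at 2 µM, an agonist of the bile acid receptor FXR. The 8 groups were therefore insulin and glucagon, each with DMSO or GW4064, under shlacZ and again under shFOXA2, with 3 arrays per group, 1 from each of experiments 1 to 3. All groups shared the virus and a medium with 100 nM dexamethasone, a synthetic glucocorticoid. Each experiment used cells pooled from 3 mice, so the replicate is the experiment. No group lacked both hormones, so a fall under glucagon cannot be told apart from a rise under insulin; "fell" and "rose" below mean glucagon against insulin.

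Values are log2 levels as deposited. Over the whole array the median level was 3.25, and a gene close to that is near the floor of the arrays. Differences are on the log2 scale and carry their standard error (SE), and a gene is called when its adjusted p (limma, Benjamini-Hochberg over 22180 genes) is under 0.05. The targeted gene, Foxa2, was at a lower level with shFOXA2 in 12 of 12 matched pairs, with differences from -0.90 to -0.03. With DMSO its means under shlacZ and shFOXA2 were 6.27 and 5.77 with insulin, and 7.47 and 7.02 with glucagon. Its RNA in shFOXA2 cells with glucagon thus lay above that in shlacZ cells with insulin. The 8 hepatocyte markers had a median level of 10.6. All 5 stellate cell and all 4 measured lymphocyte markers lay below 4, as did 4 of 6 macrophage, 2 of 5 endothelial and 2 of 4 cholangiocyte markers; the highest marker of another cell type lay at 9.12. The mean of the cholangiocyte list ran from 4.39 to 5.10 in the insulin arrays and from 4.09 to 4.44 in the glucagon arrays, and its part in the results below was not tested. In such bulk samples, fewer cells of a type and less RNA per cell cannot be told apart.

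The 4 shlacZ arrays of experiment 3 stood apart in a list of 9 genes that respond to NF-kB, the transcription factor of inflammatory signalling. In the other 5 combinations of experiment and hairpin, the mean of this list differed between glucagon and insulin by -1.87 to -1.36, and in these 4 arrays by 0.53, that is the opposite way. Counts of helicases, their roles and the gene lists in the hormone contrasts that include these 4 arrays are therefore also given without them. Values of single genes are with them. The shFOXA2 arrays of experiment 3 were kept, though their 2 pairs were unlike in this list. Its means under insulin and glucagon were 8.64 and 6.61 with DMSO, and 7.79 and 7.11 with GW4064.

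Under glucagon, many helicases were expressed at a lower level than under insulin, above all those that build ribosomes, of which 14 of 15 lay below 0. Averaged over the 4 conditions of hairpin and drug, 20 of the 50 genes fell and 2 rose, while 28 did not pass the test. Of all genes tested, 8.85% were called lower and 7.38% higher. The median difference of the 50 was -0.11, against 0.01 for all genes, and 36 of the 50 (72.0%) lay below 0, against 47.7% of all genes. The shifts were small: 9 helicases fell by more than 1.25-fold and 0 of the 22 called changed by more than 1.5-fold. With the experiment as a block, 23 fell (12.6% of all genes) and 4 rose (12.0%). Without the 4 shlacZ arrays of experiment 3, 17 fell (7.89% of all genes) and 1 rose (6.85%); Ddx5, Ddx11, Ddx56 and Dhx9 no longer passed.

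**Figure D1:**
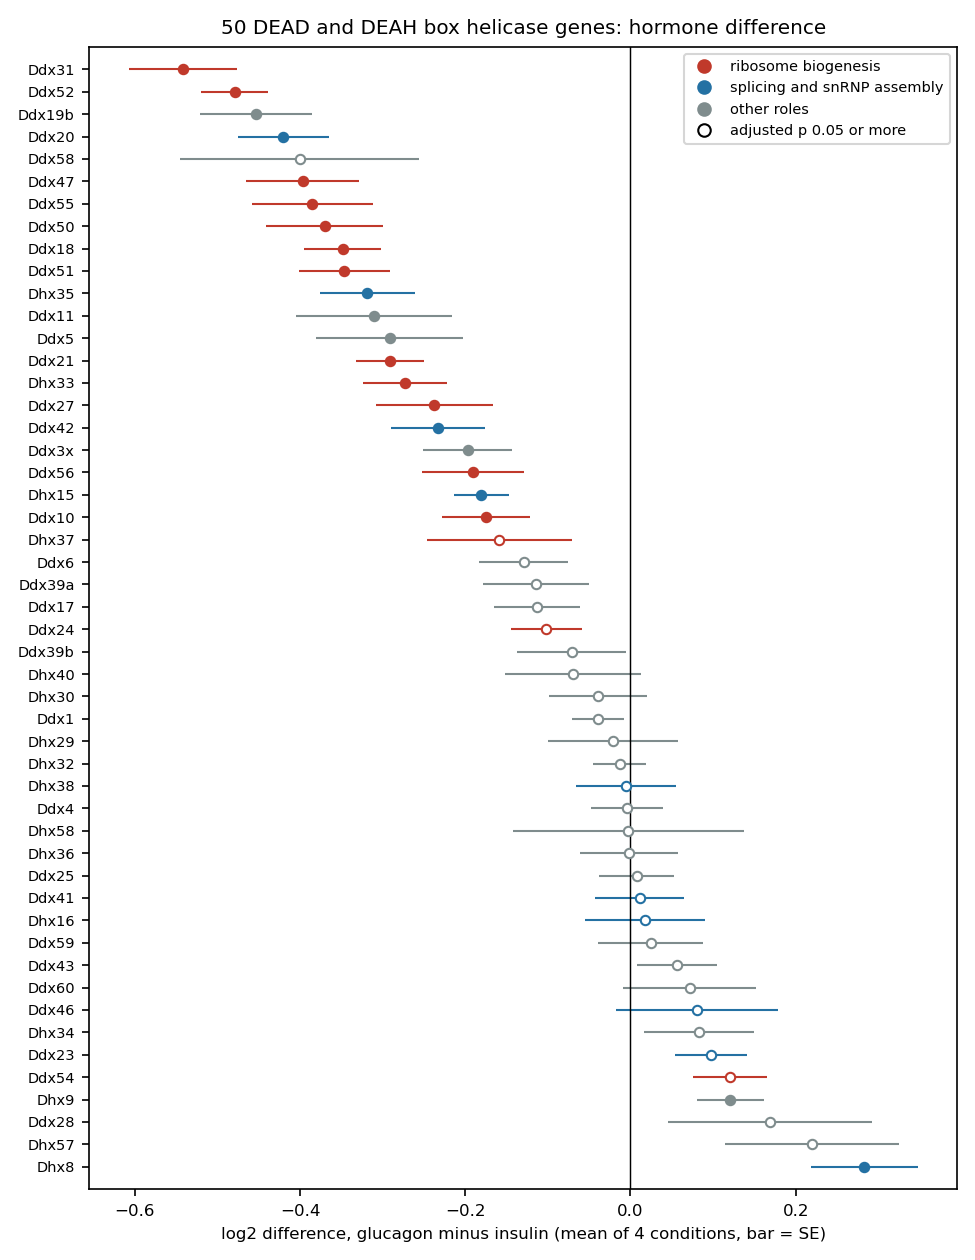
Log2 difference between glucagon and insulin, averaged over 4 conditions of 6 arrays each (3 per hormone), for each of the 50 helicase genes, ordered by value; bars are the SE, filled points passed an adjusted p of 0.05 and open points did not. The red points, genes of ribosome biogenesis, lie mostly in the upper left, from -0.54 for Ddx31, with Ddx54 alone above 0; Dhx8 lies farthest to the right at 0.28.

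The family was compared with genes of similar mean level, because genes near the floor are rarely called. Among genes with a mean level of 8 or more, 21.2% were called lower, and 7 of 14 helicases (50.0%). Between 6 and 8 the shares were 23.0% of genes and 10 of 23 helicases (43.5%), and between 4 and 6 they were 14.9% and 3 of 9 (33.3%). The 4 helicases below a level of 4 were Ddx4, Ddx25, Ddx43 and Ddx60, and 0 of them were called, where 1.39% of such genes were called lower. In each band from 4 upward the share of helicases called lower was higher than that of genes of like level. Much of this came from the ribosome biogenesis helicases, with 4 of 5, 6 of 8 and 2 of 2 called lower from the highest band down. The other helicases called lower were 3 of 9, 4 of 15 and 1 of 7, against 21.2%, 23.0% and 14.9% of genes. These shares are a description. Without the 4 shlacZ arrays of experiment 3, the helicases called lower numbered 6 of 14, 9 of 23 and 2 of 9 from the highest of these bands down, against 19.3%, 20.8% and 12.8% of genes.

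**Figure D2:**
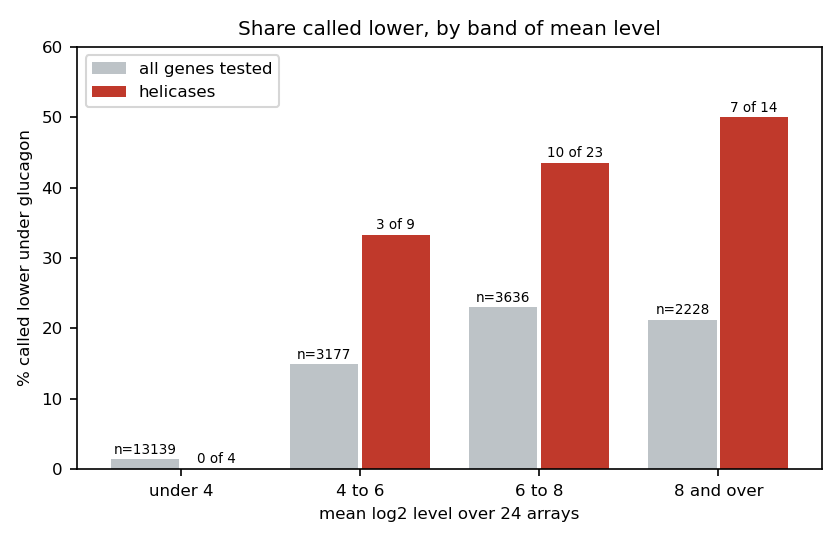
Percent of genes called lower under glucagon (averaged contrast), by band of mean log2 level, for all genes tested (grey, number of genes above the bar) and for the helicases (red, called of measured above the bar). The red bar is the taller in the 3 bands from 4 upward, reaching 50.0% against 21.2% in the highest band.

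For 4 of the genes followed below, the 250 bases before a transcript start are shown (RefSeq, GRCm38.p6, 5′ to 3′ on the gene's strand), because glucagon signals through cAMP, and the letters TGACG form the half-site of the cAMP response element, whose full form is TGACGTCA. Both motifs were searched on both strands, so a half-site can also read CGTCA, and a full element holds 2 overlapping half-sites. Capitals mark the matches. Ddx52 stood at chr11:83941840-83942089 (plus strand), Ddx21 at chr10:62602299-62602548 (minus strand), Ddx51 at chr5:110653201-110653450 (plus strand) and Dhx8 at chr11:101732706-101732955 (plus strand). The first 3 genes fell and Dhx8 rose.
Ddx52: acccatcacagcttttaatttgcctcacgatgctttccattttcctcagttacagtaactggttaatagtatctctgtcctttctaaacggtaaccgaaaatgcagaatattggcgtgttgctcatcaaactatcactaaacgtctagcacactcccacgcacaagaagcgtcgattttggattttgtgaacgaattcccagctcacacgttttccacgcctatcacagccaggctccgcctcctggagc
Ddx21: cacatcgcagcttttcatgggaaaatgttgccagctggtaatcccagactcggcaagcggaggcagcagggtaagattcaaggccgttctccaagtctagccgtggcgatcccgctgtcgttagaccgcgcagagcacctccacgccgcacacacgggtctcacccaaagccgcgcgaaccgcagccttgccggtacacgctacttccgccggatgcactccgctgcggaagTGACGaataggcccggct
Ddx51: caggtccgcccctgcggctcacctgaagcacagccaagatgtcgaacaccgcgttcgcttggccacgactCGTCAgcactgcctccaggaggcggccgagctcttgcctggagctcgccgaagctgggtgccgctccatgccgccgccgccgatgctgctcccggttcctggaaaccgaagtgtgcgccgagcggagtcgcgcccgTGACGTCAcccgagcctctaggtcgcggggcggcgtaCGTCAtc
Dhx8: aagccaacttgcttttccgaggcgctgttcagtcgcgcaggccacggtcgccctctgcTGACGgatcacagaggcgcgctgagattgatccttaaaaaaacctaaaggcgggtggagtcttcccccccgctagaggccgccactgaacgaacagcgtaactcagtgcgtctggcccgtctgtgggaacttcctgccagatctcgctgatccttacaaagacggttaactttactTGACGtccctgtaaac
Ddx52 held 0 half-sites in this window. Ddx21 held 1, which began 18 bases before the start. Ddx51 held 4, of which 2 overlap in a full element that begins 44 bases before the start; the last 19 bases of its window, with 1 of its half-sites, lie inside the span annotated for the gene. Dhx8, which moved the opposite way, held 2, at 192 and 16 bases. Over all 44 helicases with an upstream sequence, 8 of them with several starts that were all searched, 22 (50.0%) held a half-site, against 23.2% of 16990 genes tested and 34.19% of the 4683 with a mean level of at least 6. Among the helicases that fell the count was 12 of 19 (63.16%), and among the others 10 of 25 (40.0%). The full element was found upstream of Ddx51 and Dhx36 only (4.545%, against 3.459% of genes with a mean of at least 6). The E-box CACGTG was found upstream of 6 (13.64%, against 11.47%), among them 4 of the 19 that fell and 2 of the 25 others. The ETS motif CCGGAAG was found upstream of 15 (34.09%, against 18.64%), among them 5 of the 19 that fell and 10 of the 25 others. These are matches of letters in a short window, not shown binding sites.

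The helicases of ribosome biogenesis showed the most uniform change. Of 15 genes, 12 fell and none of the other 3 passed the test in either direction. All but Dhx37 had an unadjusted p under 0.05 (limma), as had 5604 of the 22180 genes tested. These 14 include Ddx54, which lay above 0. The median difference was -0.29. The rest of the family counted 8 falls and 2 rises among 35 (22.9% and 5.71%, against 8.85% and 7.38% of all genes). The shares of all genes in this paragraph were not matched for level. In the bands of 8 and over, 6 to 8 and 4 to 6, the rest had 3 of 9, 4 of 15 and 1 of 7 called lower. Of all genes in these bands, 21.2%, 23.0% and 14.9% were called lower. Without the 4 shlacZ arrays of experiment 3, the falls were 11 of 15, with a median of -0.31. In the rest they were 6 of 35 (17.1%, against 7.89% of all genes), beside 1 rise. The 12 were Ddx31, Ddx52, Ddx47, Ddx55, Ddx50, Ddx18, Ddx51, Ddx21, Dhx33, Ddx27, Ddx56 and Ddx10. These proteins work in the nucleolus, some on the precursor of the small subunit and others on that of the large one. Of the remaining 3, Ddx24 (-0.10, adjusted p = 0.128) and Dhx37 (-0.16, adjusted p = 0.286) lay below 0 without passing, and Ddx54 lay at 0.12 (adjusted p = 0.0761). With the experiment as a block, Dhx37 fell (adjusted p = 0.0379) and Ddx54 rose (adjusted p = 0.0349).

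Ddx52, needed for processing of the small subunit's ribosomal RNA, separated the hormones in every condition. In shlacZ cells with DMSO its levels in experiments 1 to 3 were 8.39, 8.56 and 8.48 under insulin and 7.88, 7.94 and 7.86 under glucagon. With GW4064 they were 8.20, 8.34 and 8.35 against 7.88, 7.93 and 7.90. In shFOXA2 cells with DMSO they were 8.45, 8.35 and 8.46 under insulin and 7.80, 7.89 and 8.07 under glucagon. With GW4064 they were 8.39, 8.50 and 8.33 against 7.86, 8.09 and 7.96. All 12 insulin arrays lay above all 12 glucagon arrays, the nearest at 8.20 and 8.09. The means were 8.40 ± 0.10 and 7.92 ± 0.09 (SD over the 12 arrays of each hormone, which came from 3 experiments and are not independent replicates). The averaged difference was -0.48 (SE 0.04, adjusted p = 3.23e-08), and Ddx52 fell by 28.3%.

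Ddx31, a nucleolar helicase, had the largest fall of the family. It ranged from 5.81 to 6.37 (median 6.07) in the 12 insulin arrays and from 5.22 to 5.74 (median 5.50) in the 12 glucagon arrays. The hormones again did not overlap, though the margin between the nearest arrays was narrow. The difference was -0.54 (SE 0.07, adjusted p = 3.65e-06), and Ddx31 fell by 31.3%. By experiment it was -0.34, -0.63 and -0.65.

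Ddx18 and Ddx21 also separated the hormones completely. Ddx18, which acts on the precursor of the large subunit, ran from 8.39 to 8.80 under insulin (median 8.62) and from 8.04 to 8.34 under glucagon (median 8.28), a difference of -0.35 (SE 0.05, adjusted p = 1.17e-05). Its second probe set differed by -0.19 and did not pass (adjusted p = 0.295, limma over all probe sets). Ddx21, which binds ribosomal RNA genes and small nucleolar RNAs, ran from 9.67 to 9.97 under insulin (median 9.79) and from 9.36 to 9.64 under glucagon (median 9.53), a difference of -0.29 (SE 0.04, adjusted p = 2.36e-05). Its second probe set also fell by 0.46 (adjusted p = 0.00812, limma over all probe sets).

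Ddx50 is the paralog of Ddx21 and its neighbour on chromosome 10, with 13493 bases between the genes. It fell by 0.37 (SE 0.07, adjusted p = 6.48e-04), from a median of 7.52 under insulin to 7.08 under glucagon. Its ranges overlapped (7.22 to 7.67 and 6.80 to 7.39), and it was lower in 11 of 12 matched pairs. Probes of close paralogs can share targets, which the deposited values do not resolve.

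Ddx47, which acts early on the small subunit's precursor, differed by -0.40 (SE 0.07, adjusted p = 2.42e-04). Its levels were 7.71 to 8.24 under insulin and 7.28 to 7.77 under glucagon. Ddx55, a large subunit factor, differed by -0.39 (SE 0.07, adjusted p = 6.08e-04), with levels of 5.26 to 5.79 and 4.86 to 5.31. In both genes the ranges overlapped between hormones, while all 12 matched pairs were lower under glucagon. Ddx51, another large subunit factor, differed by -0.35 (adjusted p = 9.28e-05) and was lower in 12 of 12 pairs. The smallest of the 12 falls was that of Ddx10 at -0.17 (adjusted p = 0.0283). Ddx56 (-0.19, adjusted p = 0.0398) and Ddx10 did not pass in 20 and 10 of the 35 alternatives run.

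**Figure D3:**
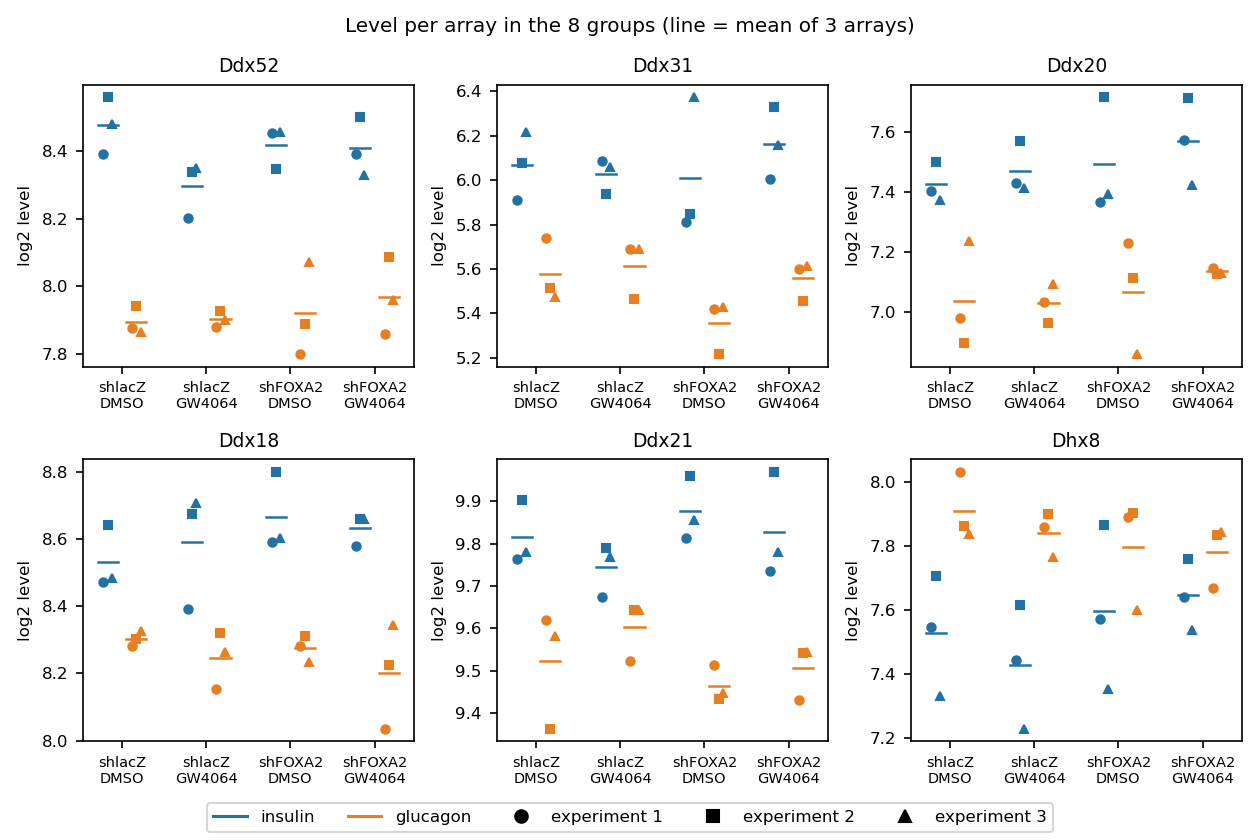
Log2 level of 6 helicase genes in each of the 24 arrays, by hairpin and drug (horizontal axis) and hormone (blue insulin, orange glucagon); symbols mark experiments 1 to 3 and lines the mean of 3 arrays. For Ddx52, Ddx31, Ddx20, Ddx18 and Ddx21 every blue point lies above every orange point, and for Dhx8 the orange lines lie above the blue ones with overlapping points.

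Splicing helicases moved both ways. Of 10 genes, Ddx20, Dhx35, Ddx42 and Dhx15 fell, Dhx8 rose and 5 did not pass, with a median of 0.00. Ddx20, known as Gemin3 and part of the SMN complex that assembles spliceosomal snRNPs, ran from 7.37 to 7.71 under insulin (median 7.43) and from 6.86 to 7.24 under glucagon (median 7.10). The hormones did not overlap, and the difference was -0.42 (SE 0.06, adjusted p = 1.01e-05). Dhx15, which takes apart spent spliceosomes and also serves ribosome assembly, differed by only -0.18 (SE 0.03, adjusted p = 4.99e-04), yet its ranges (9.56 to 9.72 and 9.35 to 9.55) did not overlap. Dhx35, a spliceosome component, differed by -0.32 (adjusted p = 3.88e-04), and Ddx42, which joins the early spliceosome, by -0.23 (adjusted p = 0.00626).

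Dhx8, which releases the finished mRNA from the spliceosome, had the larger of the 2 rises. Its levels were 7.23 to 7.86 under insulin (median 7.56) and 7.60 to 8.03 under glucagon (median 7.85), so the hormones overlapped, but it was higher in 12 of 12 matched pairs, as were 4.58% of all genes. The difference was 0.28 (SE 0.06, adjusted p = 0.00331), or 0.31, 0.14 and 0.40 by experiment. Dhx38, which acts at an earlier catalytic step, lay at -0.01 (SE 0.06, adjusted p = 0.974). The other splicing helicases that did not pass were Ddx23 (0.10), Ddx46 (0.08), Dhx16 (0.02) and Ddx41 (0.01).

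In mRNA export, Ddx19b, which remodels mRNA particles at the nuclear pore, fell and the paralogs Ddx39a and Ddx39b did not pass. This was 1 fall among 3 (33.3%), where 14.9% to 23.0% of genes fell in the bands from 4 upward. Without the 4 shlacZ arrays of experiment 3, 1 of the 3 fell as well. Ddx19b ran from 6.20 to 6.65 under insulin (median 6.48) and from 5.52 to 6.33 under glucagon (median 6.02), the low end being the shFOXA2 array with DMSO of experiment 3. Its difference was -0.45 (SE 0.07, adjusted p = 4.92e-05), lower in 12 of 12 pairs with overlapping ranges. Ddx39a differed by -0.11 (adjusted p = 0.300). The 3 probe sets of Ddx39b differed by -0.07, -0.14 and 0.10, and none passed (limma over all probe sets).

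Of 4 helicases of transcription and nuclear RNA processing, 1 fell and 1 rose. All 4 had a mean level of 8 or more, where 21.2% of genes fell and 13.2% rose. With the 4 shlacZ arrays of experiment 3 left out, 0 of the 4 passed. Ddx5, a coregulator of transcription and splicing, fell by 0.29 (SE 0.09, adjusted p = 0.0276), with levels of 9.01 to 9.59 and 8.59 to 9.42; by experiment the difference was -0.08, -0.32 and -0.47. It did not pass in 9 of the 35 alternatives run. Its paralog Ddx17 differed by -0.11 (SE 0.05, adjusted p = 0.176). Dhx9, also called RNA helicase A, was called only narrowly, at 0.12 (SE 0.04, adjusted p = 0.0459), and did not pass in 23 of the 35 alternatives run. It went from a median of 9.32 to 9.40, and was higher in 11 of 12 pairs; most of this came from experiment 1 (0.26, against 0.03 and 0.08 in the others). Ddx1, a subunit of the tRNA ligase complex, lay at -0.04 (adjusted p = 0.513).

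Of 5 helicases of translation and mRNA decay, Ddx3x, which helps ribosomes scan structured leaders, fell by 0.20 (SE 0.05, adjusted p = 0.0133) and was lower in 12 of 12 pairs. This was 1 fall among 5 (20.0%), where 14.9% to 23.0% of genes fell in the bands from 4 upward. Without the 4 shlacZ arrays of experiment 3, 1 of the 5 fell as well. Ddx6, a factor of mRNA decapping and repression, lay at -0.13 (adjusted p = 0.123) and passed with the experiment as a block (adjusted p = 0.0294). Dhx29 and Dhx34 lay at -0.02 and 0.08 and did not pass. Dhx36, which unwinds G-quadruplexes and was set beside Dhx9, lay at 0.00 (SE 0.06, adjusted p = 0.994). Ddx11, a DNA helicase of sister chromatid cohesion, fell by 0.31 (SE 0.09, adjusted p = 0.0270) and did not pass in 11 of the 35 alternatives run.

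Of the 3 sensors of viral RNA, limma called 0, and 1 (Ddx58) had an unadjusted p under 0.05, as had 5604 of the 22180 genes tested. Ddx58, known as RIG-I, had the fifth largest difference of the family, at -0.40 (SE 0.15, adjusted p = 0.0694). It passed as a fall when the experiment was a block (adjusted p = 7.06e-04), and it varied widely between experiments, with differences of -0.70, -0.39 and -0.12. Its paralog Dhx58, a regulator of the same pathway, lay at 0.00 (SE 0.14), and Ddx60 at 0.07, near the floor. All groups carried an adenovirus, and a group without virus was not analysed here. The mitochondrial helicases Ddx28 (0.17, adjusted p = 0.469) and Dhx30 (-0.04) did not pass. The germ line helicases Ddx4, Ddx25 and Ddx43 lay near the floor, with mean levels under 4, and differed by 0.06 at most. Of the 4 helicases of less settled role, Dhx57 had the largest difference, 0.22 (adjusted p = 0.198, or 0.0411 with the block). Ddx59, Dhx32 and Dhx40 lay between -0.07 and 0.02. With the 4 shlacZ arrays of experiment 3 left out, the calls were 0 for viral RNA sensors and for mitochondrial, germ line and less settled helicases.

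The separation of hormones was examined array by array. All 12 insulin arrays lay above all 12 glucagon arrays in 6 helicases (Ddx18, Ddx20, Ddx21, Ddx31, Ddx52 and Dhx15), against 1.96% of all genes. In 14 helicases the glucagon array was lower in 12 of 12 matched pairs, against 5.75% of all genes. The shares of all genes in this paragraph were not matched for level. They include 13139 genes with a mean under 4, while 46 of the 50 helicases lay at 4 or more. Without the 4 shlacZ arrays of experiment 3, the separated helicases were the same 6 (2.38% of all genes), 17 were lower in all 10 remaining pairs (6.76%), and Dhx8 was higher in all 10 (5.98%). The 12 pairs came from 3 experiments and are not 12 independent replicates. All 20 helicases that fell had a negative mean difference in each of the 3 experiments. They were called on the average of these same experiments, which favours a shared sign. The share among all genes called lower was not counted. In every combination of experiment and hairpin, 14 of the 15 ribosome biogenesis helicases were lower under glucagon, with medians from -0.34 to -0.16. The smallest median was that of the 4 shlacZ arrays of experiment 3, in which the NF-kB list moved the opposite way and 30 of the 50 helicases were lower.

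**Figure D4:**
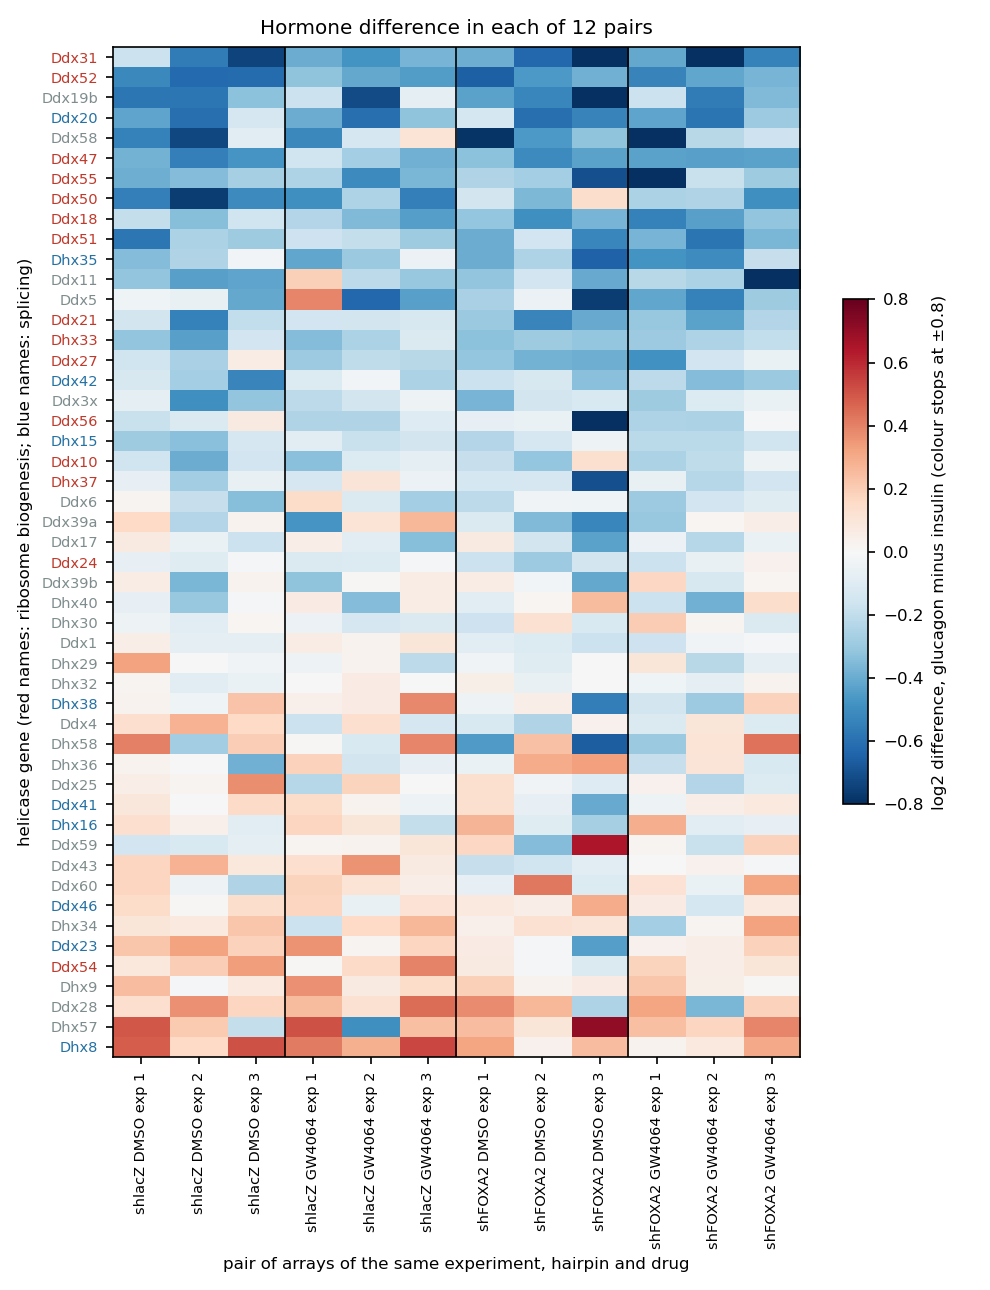
Log2 difference between the glucagon and the insulin array for each of the 50 helicase genes (rows, ordered by averaged difference) in each of the 12 pairs of the same experiment, hairpin and drug (columns); blue is lower under glucagon and red higher, and the colour stops at ±0.8. The top rows, most of them with red names for ribosome biogenesis, are blue nearly throughout, while Dhx8 in the last row is red in 12 of 12 pairs.

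Within single conditions, 3 arrays against 3 gave fewer calls. The shares of all genes given beside them were not matched for level. In shlacZ cells with DMSO, 6 helicases fell (2.98% of all genes did), and Ddx50 had the largest difference, -0.61 (SE 0.14, adjusted p = 0.0147). With GW4064, 3 fell (1.8% of genes), namely Ddx18, Ddx20 and Ddx52. In shFOXA2 cells with DMSO, 7 fell (2.67% of genes), led by Ddx31 at -0.65 (SE 0.13, adjusted p = 0.0043) and Ddx19b at -0.64 (SE 0.14, adjusted p = 0.0071). With GW4064, 6 fell (2.12% of genes), led again by Ddx31 at -0.61 (SE 0.13, adjusted p = 0.0097). All calls in these 4 contrasts were falls, and 10 helicases fell in at least 1: Ddx18, Ddx19b, Ddx20, Ddx21, Ddx31, Ddx50, Ddx51, Ddx52, Dhx15 and Dhx35. Ddx18, Ddx20, Ddx21 and Ddx31 passed in 3 conditions, and Ddx52 passed in all 4.

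With the experiment as a block, the falls numbered 12 (6.53% of genes), 5 (4.5%), 12 (5.96%) and 11 (5.05%) in the same order, and Dhx8 rose in both shlacZ conditions. Without the 4 shlacZ arrays of experiment 3, the falls in shlacZ cells were 1 with DMSO (1.74% of genes) and 0 with GW4064 (1.11%), where 2 arrays per group remain.

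No helicase passed the test for the drug or for the hairpin. For GW4064 against DMSO, averaged over 4 conditions, limma called 0 of the 50 (0.00902% of all genes, 2 in number, were called), and 1 helicase, Ddx59 at -0.14, had an unadjusted p under 0.05, as had 766 genes. Differences ran from -0.14 to 0.11, and their 95% intervals from -0.35 to 0.34. For shFOXA2 against shlacZ, limma likewise called 0 (0.00902% of all genes), and the only unadjusted p under 0.05 among the 50 was again that of Ddx59, at 0.14, while 1376 genes had one. Here differences ran from -0.09 to 0.14 and their 95% intervals from -0.32 to 0.45. Ribosome biogenesis helicases had medians of 0.00 for the drug and 0.01 for the hairpin, against -0.29 for the hormone.

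**Figure D5:**
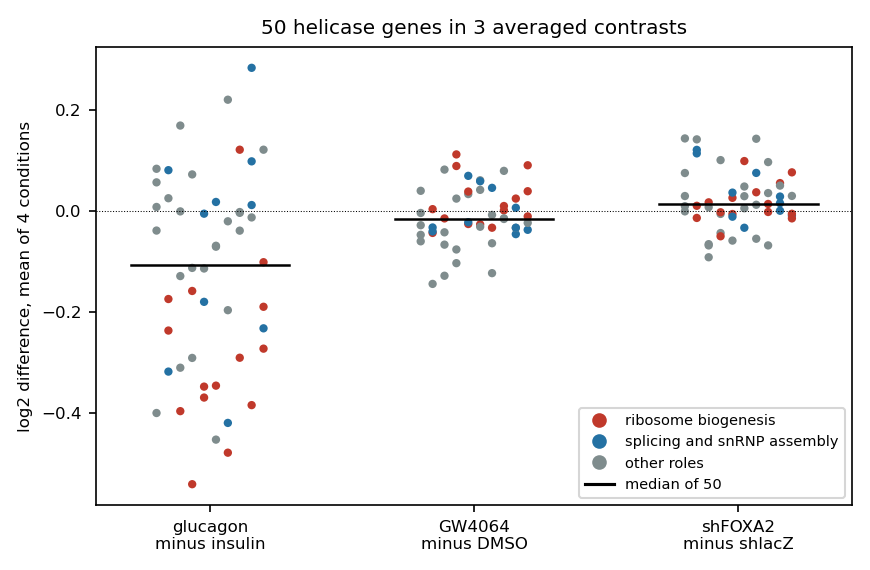
Log2 difference of each of the 50 helicase genes for glucagon against insulin, GW4064 against DMSO and shFOXA2 against shlacZ, each averaged over 4 conditions; colours mark the role and black lines the median of the 50. The hormone column spreads from -0.54 to 0.28 with its median at -0.11, while the other columns stay between -0.14 and 0.14.

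Whether the hormone response depended on the hairpin or the drug was tested as an interaction. For hormone by hairpin, limma called 0 helicases (0.0% of all genes), with an unadjusted p under 0.05 for 921 genes, among them Ddx23 and Ddx43. Of the 50, 38 (76.0%) lay below 0, against 51.24% of all genes, with a median of -0.07. The shFOXA2 array with glucagon and DMSO of experiment 3 had the lowest mean of the 50 helicases, 6.85. The next lowest was 6.86, with glucagon and GW4064 in shFOXA2 cells of experiment 1. In shFOXA2 cells with DMSO, Ddx23 lay at 7.52, 7.63 and 7.76 under insulin in experiments 1 to 3. Under glucagon it lay at 7.59, 7.61 and 7.31. How far this lean rests on 1 array was not tested. For hormone by drug limma called 0 as well (0.0% of all genes), with an unadjusted p under 0.05 for 584 genes, 0 of them helicases. Here 18 of the 50 (36.0%) lay below 0, against 46.6% of all genes, with a median of 0.03. Shares below 0 were not tested. The 95% intervals of these differences of differences reached from -0.79 to 0.62 for the hairpin and from -0.53 to 0.78 for the drug, a span wider than most of the hormone differences themselves. With the experiment as a block the counts of called helicases were 0 in the drug, hairpin and interaction contrasts too.

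Of 21 RNA helicases outside the family, 3 fell (14.3%) and 2 rose (9.52%), with a median of -0.06. Of all genes, 8.85% fell and 7.38% rose. The median level of this list was 6.94, and at levels of 6 to 8, 23.0% of genes fell and 15.2% rose. With the experiment as a block, 6 fell and 3 rose (12.6% and 12.0% of all genes), with Eif4a2, Helz2 and Ythdc2 gained as falls and Snrnp200 as a rise. Upf1, the helicase of nonsense-mediated decay, had the largest fall at -0.53 (SE 0.06, adjusted p = 3.29e-06), and Mov10, which acts in RNA silencing, the largest rise at 0.55 (SE 0.12, adjusted p = 0.00214). Of 22 partners measured, 5 fell (22.7%) and 4 rose (18.2%). Their median level was 7.29, in the same band of 6 to 8. With the block 9 fell, the gains being Smn1, Gemin2, Gemin5 and Smg1, and 4 rose. Upf2, which binds Upf1, fell by 0.62 (SE 0.08, adjusted p = 3.98e-06). Thoc1, of the complex that works with Ddx39b in export, fell by 0.38 (SE 0.04, adjusted p = 1.59e-06). Trim25 and Mavs, which act before and after RIG-I, rose by 0.66 (SE 0.05, adjusted p = 4.61e-09) and 0.36 (SE 0.11, adjusted p = 0.0296). Of 10 interferon-responsive genes, Rsad2 was called, at 0.63 (SE 0.16, adjusted p = 0.00961), and with the block Ifit1 as well, at 0.26 (adjusted p = 0.0301). Of the 9 NF-kB responsive genes, 8 fell, with a median of -1.53. Without the 4 shlacZ arrays of experiment 3, the other RNA helicases counted 3 falls and 2 rises, the partners 4 and 4, the interferon genes 1 rise and the NF-kB genes 9 falls.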

How the data were processed

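Each array gave log2 values, deposited by the authors for 41345 probe sets; the log2 scale was read from the values (1.46 to 13.5). Per the series' design text, technical replicates were pooled and GeneSpring was used, and the normalization is not given in the sources used here. Array medians lay between 3.21 and 3.28. Of the probe sets, 23521 had 1 gene symbol, 1814 several and 16010 none; a gene with several of its own was read from that of the highest mean, giving 22180 genes. All 24 arrays entered 1 limma 3.58.1 fit (R 4.3.3), with 1 mean per group, 16 residual degrees of freedom and no block. The number of arrays limits the precision: the median SE over genes was 0.13 for a single condition and 0.063 for averaged contrasts.

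Experiment numbers paired the arrays: deviations from group means correlated in all 84 same-experiment pairs (r = 0.374 to 0.698), and the best match of 24 of 24 arrays shared its experiment. The fit with this block, with 14 residual degrees of freedom, was an alternative. It left every difference as it was and changed only errors. In averaged contrasts, pairs of 1 experiment enter as separate.

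Named were the 8 largest rises and falls past the threshold (2 rises existed), every helicase called in a single condition, drug, hairpin or interaction contrast, the largest of each role, fixed paralog pairs, those with several probe sets and, from other lists, a few called genes each. Genes named beyond this were chosen after their values were seen, to account for every helicase. The members and lists were chosen with earlier results of these data known. The computation was tested on simulated data. Alternatives were the block, 2 normalizations, a mean of at least 4, a variance trend, other uses of probe sets, and leaving out arrays or experiments. Leaving out the 4 shlacZ arrays of experiment 3 was added after seeing the data.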

Additional observations from a re-analysis of the deposited data

How the results depend on the processing

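The averaged hormone contrast gave 22 called helicases (20 falls and 2 rises), and 14 to 23 when 1 array or 1 experiment was left out, the lowest without experiment 2. Single-condition counts rested on few arrays. With the experiment as a replicate block they became 13 instead of 6 (shlacZ, DMSO), 6 instead of 3 (shlacZ, GW4064), 12 instead of 7 (shFOXA2, DMSO) and 11 instead of 6 (shFOXA2, GW4064); besides these and the 5 that the averaged contrast gained (Ddx6, Ddx54, Ddx58, Dhx37 and Dhx57), the block changed no other call of the 50 DEAD and DEAH box genes. Leaving out 1 array or experiment gave 1 to 8, 0 to 3, 1 to 7 and 0 to 7 in the same order. In shlacZ cells with DMSO the count was 1 without experiment 1 or 2, 3, 2 and 1 without the insulin array of experiment 1, 2 and 3, and 3 and 1 without the glucagon array of experiment 1 and 2. In shlacZ cells with GW4064 it was 0 without experiment 1 or 2 and 1 when experiment 3, the insulin array of experiment 2 or 3, or the glucagon array of experiment 1 or 3 was left out. In shFOXA2 cells with DMSO it was 1, 2 and 1 without experiments 1, 2 and 3 and 3 without the glucagon array of experiment 3. In shFOXA2 cells with GW4064 it was 0 without experiment 1 or 2, 2 without the glucagon array of experiment 1 or the insulin array of experiment 2, and 3 without the glucagon array of experiment 2. In shlacZ cells with DMSO and with GW4064, the counts were 2 and 1 with a variance trend, 2 and 1 with all probe sets tested together, and 1 and 0 without the 4 shlacZ arrays of experiment 3; the cause was not tested. For the drug, the hairpin and both interactions the count was 0 in every alternative run. Of the called helicases, Ddx18, Ddx19b, Ddx20, Ddx21, Ddx31, Ddx47, Ddx50, Ddx51, Ddx52, Ddx55, Dhx15 and Dhx35 passed in all 35 alternatives; Dhx9 did not pass in 23 of 35, Ddx56 in 20, Ddx11 in 11, Ddx10 in 10 and Ddx5 in 9, and the other 5 (Ddx3x, Ddx27, Ddx42, Dhx8 and Dhx33) in 1 or 2. No difference of the 22 changed sign.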
